A study of Mus musculus with 97 samples.

Results

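Bone morphogenetic proteins (BMPs) are secreted ligands of the TGF-beta family that bind paired type I and type II receptors and pass their signal through SMAD1, SMAD5 and SMAD4 to targets such as the Id genes. Secreted antagonists, among them gremlin 1 (Grem1) and chordin-like 1 (Chrdl1), bind the ligands outside the cell and keep them from the receptor. In the colon the antagonists come largely from muscle and fibroblasts around the crypt base, where low BMP signalling permits stem cell renewal, while BMP signalling towards the lumen accompanies differentiation of the epithelium.

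The genes described are 5 ligands (Bmp2, Bmp3, Bmp4, Bmp5 and Bmp7), 2 antagonists (Grem1 and Chrdl1) and 1 type I receptor (Bmpr1a). These 8 were chosen by symbol from a table of 20457 genes, and all 8 were among the 17083 genes that reached 1 TPM, a length-scaled share of a library's transcripts, in at least 4 libraries and were tested. The table holds RNA sequencing of whole colon from wild-type C57BL6/J mice aged 8 to 12 weeks, which received 2.5 mg of ampicillin, metronidazole, neomycin or vancomycin, or a mix of the 4, in 100 µl of phosphate buffered saline (PBS), or PBS alone. Dosing was 2 times a day for 3 days with a last dose on day 4, by gavage (PO), intraperitoneal injection (IP) or intravenous injection (IV), and colon was taken 4 hours after that dose. The 97 libraries form 18 groups of an antibiotic and a route, each set against PBS of the same route. There were 4 libraries each of PBS-IP, Vancomycin-IP, Metronidazole-IP and Metronidazole-IV, 5 each of PBS-IV, Vancomycin-IV and Neomycin-IV, and 6 of every other group. Whether each replicate is its own mouse is not stated in the labels. The p-values therefore reflect variation between these samples, which may be technical. TPM carry no read numbers, so sequencing depth is unknown.

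Promoters were looked up because several of the genes moved together with muscle or with position along the colon. The RefSeq table (build GRCm38.p6) held 4 of the 8 genes, with 250 bases before and 50 after the start, shown 5′ to 3′ on the gene's strand. Capitals mark GGCGCC, a GC-rich element bound by BMP SMADs. The Grem1 window is chr2:113758599-113758898 (minus strand), the Bmpr1a window chr14:34502497-34502796 (minus), the Bmp4 window chr14:46390620-46390919 (minus) and the Bmp5 window chr9:75775115-75775414 (plus).
Grem1: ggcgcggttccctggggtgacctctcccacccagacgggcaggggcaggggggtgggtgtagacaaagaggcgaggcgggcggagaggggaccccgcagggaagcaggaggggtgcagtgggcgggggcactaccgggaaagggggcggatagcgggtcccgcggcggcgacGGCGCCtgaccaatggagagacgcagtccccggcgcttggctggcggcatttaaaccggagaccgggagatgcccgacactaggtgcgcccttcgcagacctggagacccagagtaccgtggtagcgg
Bmpr1a: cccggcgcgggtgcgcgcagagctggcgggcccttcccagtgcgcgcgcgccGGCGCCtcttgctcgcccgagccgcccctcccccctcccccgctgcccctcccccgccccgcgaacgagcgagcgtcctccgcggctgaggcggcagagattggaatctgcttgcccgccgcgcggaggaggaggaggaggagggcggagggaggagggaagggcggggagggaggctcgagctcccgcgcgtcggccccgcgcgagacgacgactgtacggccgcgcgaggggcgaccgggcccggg
Bmp4: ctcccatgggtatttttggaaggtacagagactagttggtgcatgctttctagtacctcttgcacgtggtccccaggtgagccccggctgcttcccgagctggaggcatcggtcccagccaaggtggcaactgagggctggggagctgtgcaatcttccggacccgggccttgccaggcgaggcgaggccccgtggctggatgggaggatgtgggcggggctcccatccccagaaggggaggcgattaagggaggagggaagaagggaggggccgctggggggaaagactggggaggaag
Bmp5: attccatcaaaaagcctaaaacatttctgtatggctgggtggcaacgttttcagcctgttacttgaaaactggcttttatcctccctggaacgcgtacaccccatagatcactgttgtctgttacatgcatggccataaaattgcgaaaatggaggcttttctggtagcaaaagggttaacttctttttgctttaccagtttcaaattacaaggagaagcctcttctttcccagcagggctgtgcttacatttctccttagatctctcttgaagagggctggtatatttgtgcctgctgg
The windows of Grem1 and Bmpr1a were GC-rich, at 70.7% and 79.3% G and C, with 28 and 48 CpG dinucleotides. That of Bmp4 had 64.0% and 12 CpG, while that of Bmp5 had 43.3% and 4, against medians of 52.7% and 7 over 32851 mouse promoters. Read on both strands, GGCGCC occurred 1 time each in the Grem1 and Bmpr1a windows, and it occurs in 11.9% of all promoters. That share covers promoters of any G and C content. None was counted for windows as GC-rich as these, so the 2 matches are not an enrichment. None of the 4 windows held the CArG box of serum response factor (1.63% of promoters), TATAAA (13.6%), or the HOX13 motifs CAATAAA (4.6%) and TCGTAAA (0.597%). No motif overlapped another in these windows, and the absence of a match says only that the letters are not there.

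The libraries differed widely in the muscle and the stretch of colon they held. A score averaged over 18 smooth muscle genes, as log2(TPM + 1), ran from 6.73 to 11.01 with a median of 8.83. A distal score, the mean of Hoxa13, Hoxb13, Hoxd11, Hoxd12 and Hoxd13, which mark the hind end of the gut, ran from 0.80 to 6.15 with a median of 3.79. Summed over the lists, muscle genes took 4617 to 95217 TPM and the Hox genes 8.20 to 830 TPM, and no gene of either list was at 0 throughout any group. Colonocyte markers of the labelled tissue summed to 1176 to 29837 TPM. Within groups the scores were unrelated across libraries (r = 0.017). Vancomycin-IP stood apart in muscle, at 10.004 to 10.9 against 7.77 to 8.58 in PBS-IP. The other PBS groups reached higher muscle scores than PBS-IP, up to 10.4 in PBS-PO and 10.3 in PBS-IV. The columns of 12 libraries follow the sorted run of the table, in PBS-IP (2 of 4), PBS-IV (2 of 5), Vancomycin-IP (3 of 4), Vancomycin-IV (2 of 5) and Vancomycin-PO (3 of 6), and the labels do not say why.

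All 8 genes were above 0 in all 97 libraries. By median level per transcript length, Grem1 was at 76.4 TPM, Bmpr1a at 75.4, Bmp3 at 69.7, Bmp4 at 37.3, Bmp2 at 23.4, Chrdl1 at 16.6, Bmp5 at 7.36 and Bmp7 at 3.82. By the ratio of the highest to the lowest library, Grem1 varied most, from 2.17 to 576 TPM, and Bmpr1a least, from 40.5 to 219. The 18 groups were ordered by mean TPM for each of the 8 genes. For every gene, all 17 neighbouring pairs lay within the larger of their standard deviations. Sorting itself makes such gaps small, so this is no test of the order, and neighbours are not to be read as different. PBS-IP, the control of every IP comparison, had the lowest of the 18 means for Bmp3, Bmp4, Grem1 and Bmpr1a. It had the highest mean for Bmp5.

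**Figure D1:**
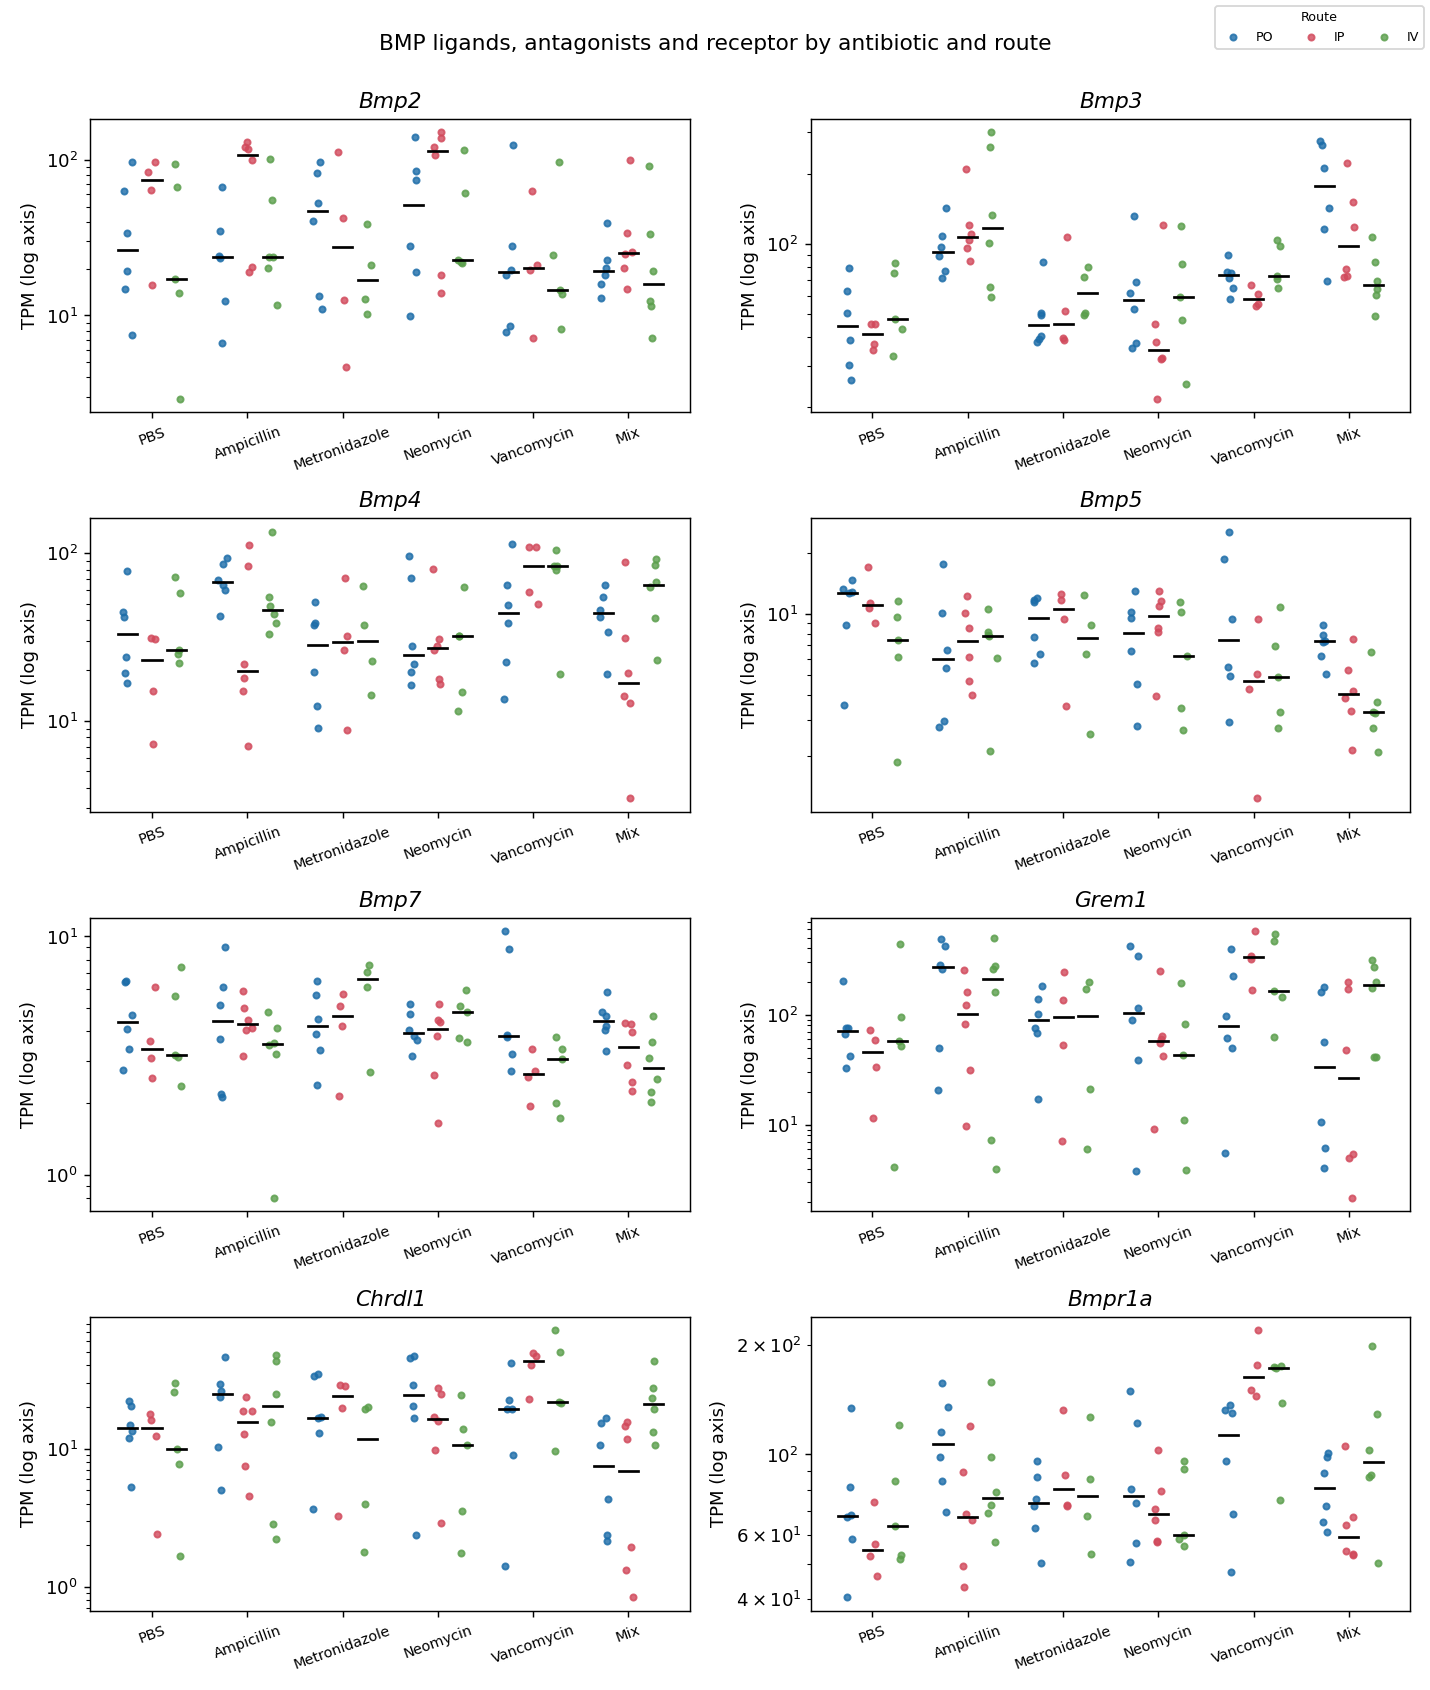
TPM of the 8 BMP genes in each of 97 libraries (points, log axes) by antibiotic on the horizontal axis and route by colour, with the group median as a bar. Bmp3 stands higher in most ampicillin libraries than in PBS, Bmpr1a is high in Vancomycin-IP at 145 to 219 TPM, and Grem1 spreads from 2.17 to 576 TPM.

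Bmp3, a divergent BMP that opposes signalling by other BMPs in bone, rose with ampicillin and with the mix. In PBS it stood at 26.2, 44.7 and 78.9 TPM (lowest, median, highest of 6) by gavage. The PBS-IP libraries had 37.3, 45.5, 45.6 and 35.3 TPM, and the PBS-IV libraries 75.0, 43.3, 82.9, 47.7 and 33.2 TPM. The PBS groups of the 3 routes thus overlapped, and the highest PBS library was at 82.9 TPM.

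In Ampicillin-IP Bmp3 ran from 85.0 through a median of 107 to 209 TPM. All 6 libraries lay above all 4 of PBS-IP. How many of all genes separated from PBS in this way, in this or any later comparison, was not counted, so separation is description only. The log2 fold change on the log2(TPM + 1) scale, which understates changes of low genes, was 1.48 (limma adjusted p = 0.0389, SE 0.37). Ampicillin-PO ran from 71.8 through 92.8 to 143 TPM and Ampicillin-IV from 59.4 through 117 to 301 TPM. In each of these groups 4 of 6 libraries lay above the highest PBS library of the route. Their log2 fold changes were 1.07 (limma adjusted p = 0.216, SE 0.33) and 1.23 (limma adjusted p = 0.214, SE 0.35), which did not pass the test. Of all genes tested, 0.0702% were called at an adjusted p under 0.05 in Ampicillin-PO, 0.492% in Ampicillin-IP and 0.082% in Ampicillin-IV. Bmp3 was the 1 of 8 called in Ampicillin-IP. None of the 8 was called in Ampicillin-PO or Ampicillin-IV, where 2 and 1 had an unadjusted limma p under 0.05. So did 2709 and 1075 of the 17083 tested genes. The Ampicillin-IP call was lost when any of Ampicillin-IP replicates 1, 3, 4 or 6 or PBS-IP replicates 1, 2 or 4 was left out (limma adjusted p up to 0.135). It was also lost after quantile normalization (limma adjusted p = 0.0671), without the 12 appended libraries (0.234) and when Ampicillin-IP and PBS-IP were fitted by themselves (0.0553).

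With the mix by gavage Bmp3 ran from 69.7 through 177 to 276 TPM, and 5 of 6 libraries lay above the highest PBS-PO library. The log2 fold change was 1.84 (limma adjusted p = 0.00726, SE 0.33), and 0.252% of genes were called. Leaving out Mix-PO replicate 4 ended the call (limma adjusted p = 0.0702), as did fitting Mix-PO and PBS-PO by themselves (0.0947). Mix-IP ran from 71.9 through 98.02 to 221 TPM, with all 6 libraries above PBS-IP. Its log2 fold change was 1.39 (limma adjusted p = 0.0728, SE 0.37), not called, where 0.275% of genes were called. In Mix-IV, at 49.2, 66.9 and 107 TPM, the groups overlapped and the log2 fold change was 0.39 (SE 0.35), in a comparison with 0% of genes called.

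With vancomycin, metronidazole and neomycin Bmp3 was not called in any single route. Vancomycin-PO ran from 58.1 through 73.3 to 89.5 TPM, Vancomycin-IP had 61.1, 66.9, 55.4 and 54.04 TPM, and Vancomycin-IV 104, 98.02, 70.6, 73.04 and 65.01 TPM. All 4 Vancomycin-IP libraries lay above PBS-IP, but in the other routes the groups overlapped, and the log2 fold changes of 0.68 PO (SE 0.33), 0.53 IP (SE 0.41) and 0.59 IV (SE 0.37) were not called. Metronidazole libraries ran from 38.04 to 107 TPM and neomycin libraries from 21.7 to 132 TPM over the routes. Each of these groups overlapped its PBS group.

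Averaged over the 3 routes, Bmp3 was called with 3 treatments. The log2 fold change against PBS was 1.26 for ampicillin (limma adjusted p = 1.26e-05, SE 0.20), where 7.88% of genes were called. For the mix it was 1.21 (limma adjusted p = 6.38e-05, SE 0.20) with 7.96% of genes called, and for vancomycin 0.60 (limma adjusted p = 0.0319, SE 0.21) with 26% called. The ampicillin and mix averages kept their call in all 33 fits that left out 1 library of the groups compared. The vancomycin average lost it without PBS-PO replicates 4 or 6, PBS-IV replicate 5 or Vancomycin-IP replicate 2 (limma adjusted p up to 0.0647), and without the appended libraries (0.247). With metronidazole and neomycin the averages were 0.24 (SE 0.22, 95% interval -0.19 to 0.68) and 0.18 (SE 0.21, -0.23 to 0.59), and Bmp3 was not called, where 0.398% and 2.34% of genes were.

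Because these comparisons share the PBS libraries, ampicillin and the mix were also set against metronidazole and neomycin directly, averaged over routes. These comparisons were added once the values were known. They pair the treatments with the largest Bmp3 averages with those where Bmp3 was not called, and leave vancomycin out. A Bmp3 difference was thus favoured by the choice, and its p-values and stability here are description, not independent support. Bmp3 was higher with ampicillin than with metronidazole by 1.02 on the log2 scale (limma adjusted p = 0.000926, SE 0.21, 7.02% of genes called) and than with neomycin by 1.08 (limma adjusted p = 5.57e-05, SE 0.20, 4.4% called). With the mix it was higher by 0.97 than with metronidazole (limma adjusted p = 0.00115, SE 0.21, 10.9% called) and by 1.03 than with neomycin (limma adjusted p = 0.0012, SE 0.20, 0.954% called). No other of the 8 genes was called in these 4 comparisons without covariates. Bmp3 kept its call in every fit that left out 1 library, 32 or 35 fits for each comparison. With the muscle and distal scores as covariates, the Bmp3 differences for the mix were smaller. They were 0.70 against metronidazole and 0.72 against neomycin (limma adjusted p = 0.000274 and 0.000548). Those for ampicillin were 1.05 and 1.07 (limma adjusted p = 8.29e-08 and 1.17e-09). In that fit Bmp4 was also higher with ampicillin than with metronidazole, by 0.62 (limma adjusted p = 0.011, SE 0.18), where 20% of genes were called. In the same fit Bmp5 was lower with the mix than with metronidazole, at -0.68 (limma adjusted p = 0.00725, SE 0.19), as was Bmp7, at -0.43 (limma adjusted p = 0.0238, SE 0.14), where 18.9% were called. The Bmp7 call was lost without Metronidazole-IP replicate 4 or Metronidazole-IV replicate 4 (limma adjusted p up to 0.0582) and after quantile normalization (0.0638), while those of Bmp4 and Bmp5 held in all 32 fits that left out 1 library.

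Bmp3 also varied with the distal score, falling by 0.25 on the log2 scale per unit, and 2 mix groups had lower mean distal scores than their PBS groups, a difference that was not tested. The mean distal score was 2.08 ± 1.15 (SD, n = 6) in Mix-PO and 2.54 ± 2.08 (n = 6) in Mix-IP, against 3.84 ± 1.86 (n = 6) in PBS-PO and 4.20 ± 1.90 (n = 4) in PBS-IP. Summed Hox levels were 10.9 to 236 TPM in Mix-PO and 36.7 to 689 TPM in PBS-PO, with none of the 5 genes called lower. With both scores as covariates the Bmp3 change was 1.39 in Mix-PO (limma adjusted p = 0.000158, SE 0.22, 0.65% of genes called) and 0.95 in Mix-IP (limma adjusted p = 0.0344, SE 0.25, 1.12% called). The ampicillin values with the covariates were 1.15 PO (limma adjusted p = 0.00205, SE 0.22, 0.24% called), 1.40 IP (limma adjusted p = 0.00018, SE 0.25, 3.08% called) and 1.35 IV (limma adjusted p = 0.000247, SE 0.23, 0.843% called). These ampicillin calls and that of Mix-PO held in every fit that left out 1 library of the groups compared. The Mix-IP call did not, and was lost without Mix-IP replicates 2, 4 or 6 or PBS-IP replicates 1, 3 or 4 (limma adjusted p up to 0.14) or after quantile normalization (0.0549). Without the appended libraries Mix-IP stood at 0.63 (limma adjusted p = 0.342) and Ampicillin-IP at 1.14 (0.0527). Averaged over routes with the covariates, Bmp3 rose by 1.30 with ampicillin (limma adjusted p = 2.23e-11, SE 0.14, 13% of genes called), by 0.95 with the mix (limma adjusted p = 3.3e-06, SE 0.14, 10.7% called) and by 0.73 with vancomycin (limma adjusted p = 0.000923, SE 0.15, 6.37% called). The vancomycin value with the covariates was not called without the appended libraries (limma adjusted p = 0.0834).

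**Figure D2:**
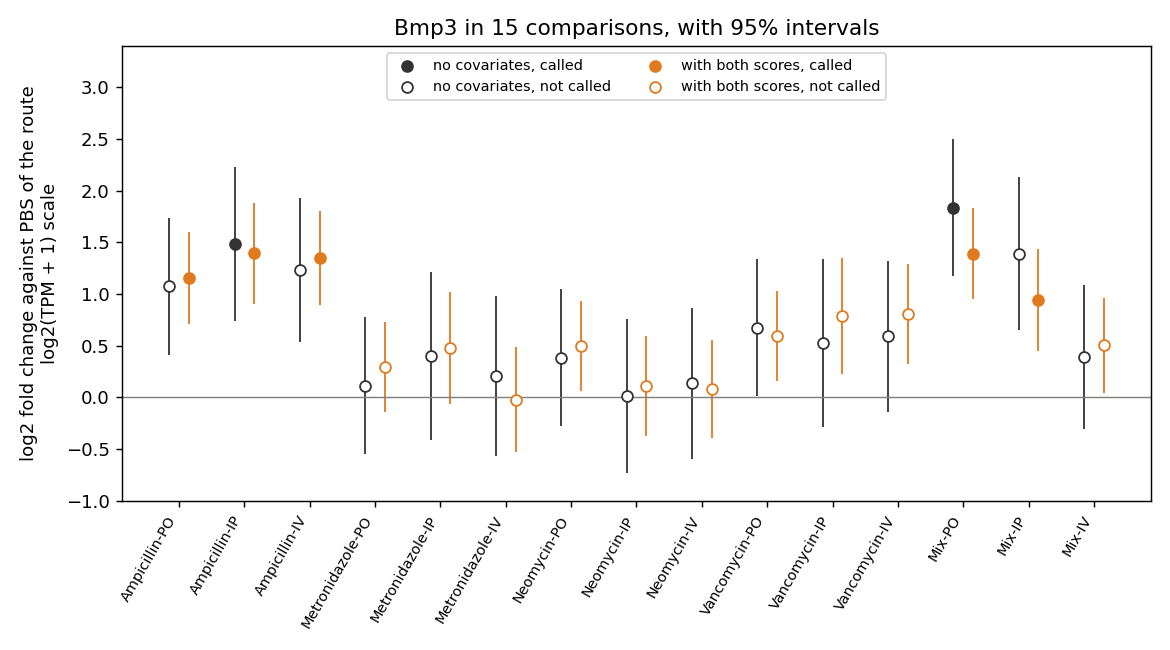
Log2 fold change of Bmp3 against PBS of the same route in 15 comparisons (points, with 95% intervals), without covariates in black and with the muscle and distal scores in orange. Filled points have a limma adjusted p under 0.05: Ampicillin-IP and Mix-PO in black, and all 3 ampicillin routes, Mix-PO and Mix-IP in orange.

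Bmp4, a ligand made mainly by mesenchymal cells of the gut wall, rose in Vancomycin-IP. The 4 Vancomycin-IP libraries had 109, 109, 58.5 and 50.1 TPM, and those of PBS-IP 15.2, 31.1, 30.8 and 7.29 TPM. All 4 treated libraries lay above all of PBS-IP, but not above all of PBS-PO and PBS-IV, which reached 78.3 and 72.0 TPM. The log2 fold change against PBS-IP was 2.02 (limma adjusted p = 0.0293, SE 0.66). In this comparison 19% of all genes were called, and 3 of the 8 BMP genes. In Vancomycin-IV, 4 libraries had 80.0 to 104 TPM and replicate 1 had 19.0 TPM. The PBS-IV libraries ran from 22.1 to 72.0 TPM, and the log2 fold change of 0.82 (SE 0.59) was not called. Averaged over routes, Bmp4 rose by 1.05 with vancomycin (limma adjusted p = 0.0208, SE 0.35).

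The rise of Bmp4 went with muscle. In Vancomycin-IP the 18 muscle genes summed to 51396 to 86995 TPM, against 10084 to 18644 TPM in PBS-IP, and 15 of 18 were called higher, as were 7 of 14 fibroblast genes. With the scores as covariates the Bmp4 change was 0.43 (limma adjusted p = 0.832, SE 0.38) in Vancomycin-IP and 0.16 (limma adjusted p = 0.718) averaged over routes. Since the muscle scores of these groups did not overlap, vancomycin and muscle content cannot be told apart within this comparison, and the covariate value rests on the slope in the other groups. In bulk tissue, more cells of a type and more RNA per cell cannot be told apart. The Bmp4 call in Vancomycin-IP was lost without PBS-IP replicates 1 or 4 or Vancomycin-IP replicates 1 or 2 (limma adjusted p up to 0.102), and, like that of the average, without the appended libraries (0.296 and 0.159).

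Bmp5, a ligand closely related to Bmp7, fell in Vancomycin-IP and with the mix. Its 4 Vancomycin-IP libraries had 4.27, 1.23, 5.05 and 9.41 TPM against 8.998, 16.97, 10.7 and 11.3 TPM in PBS-IP, where 1 treated library lay within the control range. The log2 fold change was -1.28 (limma adjusted p = 0.0471, SE 0.48). This call was lost in 7 of 8 fits that left out 1 library, all but that without Vancomycin-IP replicate 4 (limma adjusted p up to 0.246), and with no filter on low genes (0.0546). Without the appended libraries the limma adjusted p was 0.327, and with both scores as covariates the change was -0.42 (limma adjusted p = 0.836). Replicate 2, the lowest at 1.23 TPM, had the highest muscle score of its group (10.9), and without it the change was -0.88.

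With the mix the Bmp5 average over routes was -0.85 (limma adjusted p = 0.0173, SE 0.24) and, with the covariates, -0.65 (limma adjusted p = 0.0148, SE 0.18). Mix-IP libraries ran from 2.12 through 4.01 to 7.48 TPM, all 6 below PBS-IP, with a log2 fold change of -1.31 (limma adjusted p = 0.151, SE 0.43) that was not called. Mix-IV ran from 2.07 through 3.27 to 6.49 TPM within the range of PBS-IV, at 1.87 to 11.5 TPM. Mix-PO ran from 5.06 through 7.31 to 8.85 TPM within the range of PBS-PO, at 3.55 to 14.6 TPM. The averages held without any single library, and without the appended libraries the limma adjusted p was 0.0504, or 0.0662 with the covariates.

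Bmp2, a ligand made largely by differentiated epithelium in the intestine, was not called in any comparison with PBS without covariates. Its levels overlapped in all 15 comparisons and ranged widely within groups, for example 15.6, 63.6, 83.9 and 96.6 TPM in PBS-IP and 2.90, 13.8, 17.05, 66.9 and 93.3 TPM in PBS-IV. Group means ran from 20.7 ± 12.7 TPM (SD, n = 4) in Metronidazole-IV to 91.5 ± 60.2 (n = 6) in Neomycin-IP. With both scores as covariates Bmp2 was higher with ampicillin averaged over routes, by 0.72 (limma adjusted p = 0.0273, SE 0.23). That call was lost without Ampicillin-IV replicate 1, Ampicillin-IP replicate 6, PBS-IV replicate 4 or PBS-IP replicate 3 (limma adjusted p up to 0.109), without the appended libraries (0.0675) and with quantile normalization (0.0557). Bmp7, the ligand lowest in level, was not called in any of them either, with means from 2.65 ± 0.58 TPM (n = 4) in Vancomycin-IP to 5.87 ± 2.20 (n = 4) in Metronidazole-IV. Its log2 fold changes lay between -0.44 in Vancomycin-IV (SE 0.28) and 0.38 in Metronidazole-IV (SE 0.30).

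Grem1, which binds and sequesters BMP2, BMP4 and BMP7, was highest in Vancomycin-IP but did not pass the test. Its 4 libraries had 576, 169, 345 and 318 TPM, and those of PBS-IP 33.4, 71.9, 11.4 and 58.7 TPM, with no overlap. The log2 fold change was 3.13 (limma adjusted p = 0.0809, SE 1.34), and with the covariates it was 0.21 (limma adjusted p = 0.957, SE 0.50). In Vancomycin-IV the libraries had 62.7, 163, 462, 535 and 144 TPM, against 51.5, 94.6, 4.13, 442 and 57.2 TPM in PBS-IV, where the groups overlapped. At the other end, Mix-IP ran from 2.17 to 196 TPM and Mix-PO from 4.06 to 179 TPM, with 3 of 6 libraries in each below their lowest PBS library. Their log2 fold changes were -0.61 (SE 1.23) and -1.23 (SE 1.10), not called.

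Chrdl1, an antagonist that binds BMP4, followed Grem1. In Vancomycin-IP it had 40.0, 22.8, 49.0 and 46.8 TPM against 12.3, 17.8, 2.42 and 16.04 TPM in PBS-IP, again with no overlap. The share of all genes without overlap in Vancomycin-IP, where 19% were called, was not counted. That limit holds for Grem1, Bmp3, Bmp4 and Bmpr1a as well. The log2 fold change of 1.83 (limma adjusted p = 0.0999, SE 0.84) did not pass the test, and was 0.27 (limma adjusted p = 0.798, SE 0.22) with the covariates. The lowest level of all, 0.84 TPM, was in Mix-IP replicate 2, the library that also had the lowest Grem1 (2.17 TPM). Its muscle score was 7.14 and its distal score 1.03, both low in their ranges.

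Bmpr1a, the type I receptor for BMP2 and BMP4, whose human counterpart is mutated in juvenile polyposis, rose with vancomycin. Its levels in Vancomycin-IP were 219, 145, 176 and 150.5 TPM, and in PBS-IP 52.8, 73.9, 46.3 and 56.8 TPM. All treated libraries lay above all controls, with a log2 fold change of 1.57 (limma adjusted p = 0.00328, SE 0.33), and the call held in all 8 fits that left out 1 library. Vancomycin-IV had 75.1, 138, 174, 175 and 172 TPM, 4 of 5 above the highest PBS-IV library at 120.2 TPM, with a change of 0.98 (limma adjusted p = 0.0993, SE 0.30) that was not called. In Vancomycin-PO, at 47.5, 113 and 136 TPM, the change was 0.43 (SE 0.27). Of all genes, 0.258% were called in Vancomycin-IV and 0.176% in Vancomycin-PO, and none of the 8 BMP genes in either. At an unadjusted limma p under 0.05, 1 of the 8 passed in each, beside 2329 and 1033 of the 17083 tested genes. Averaged over routes the rise was 1.00 (limma adjusted p = 7.04e-05, SE 0.17).

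With both scores as covariates the Bmpr1a changes were smaller and still called, 0.70 in Vancomycin-IP (limma adjusted p = 0.0237, SE 0.17, 0.638% of genes called), 0.58 in Vancomycin-IV (limma adjusted p = 0.0324, SE 0.14, 0.878% called) and 0.51 averaged over routes (limma adjusted p = 7.12e-05, SE 0.09). As for Bmp4, the Vancomycin-IP value rests on the slope in the other groups, since the muscle scores of Vancomycin-IP and PBS-IP did not overlap. Vancomycin and muscle content cannot be told apart in that comparison. The average over routes held in all 30 fits that left out 1 library. In Vancomycin-IP the adjusted call was lost when any of PBS-IP 3 or 4 or Vancomycin-IP 1 or 3 was left out (limma adjusted p up to 0.187). In Vancomycin-IV it was lost when any of PBS-IV 1, 2, 3 or 5 or Vancomycin-IV 1, 4 or 5 was left out (limma adjusted p up to 0.102). Quantile normalization also ended both calls (0.123 and 0.0911). When the appended libraries were dropped, which leaves 1 library in Vancomycin-IP that is assumed to vary like the other groups, the Bmpr1a change there was 1.80 and not called (limma adjusted p = 0.284). With the covariates the same fit gave 0.86 in Vancomycin-IP (limma adjusted p = 0.525) and 0.61 in Vancomycin-IV (0.276).

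**Figure D3:**
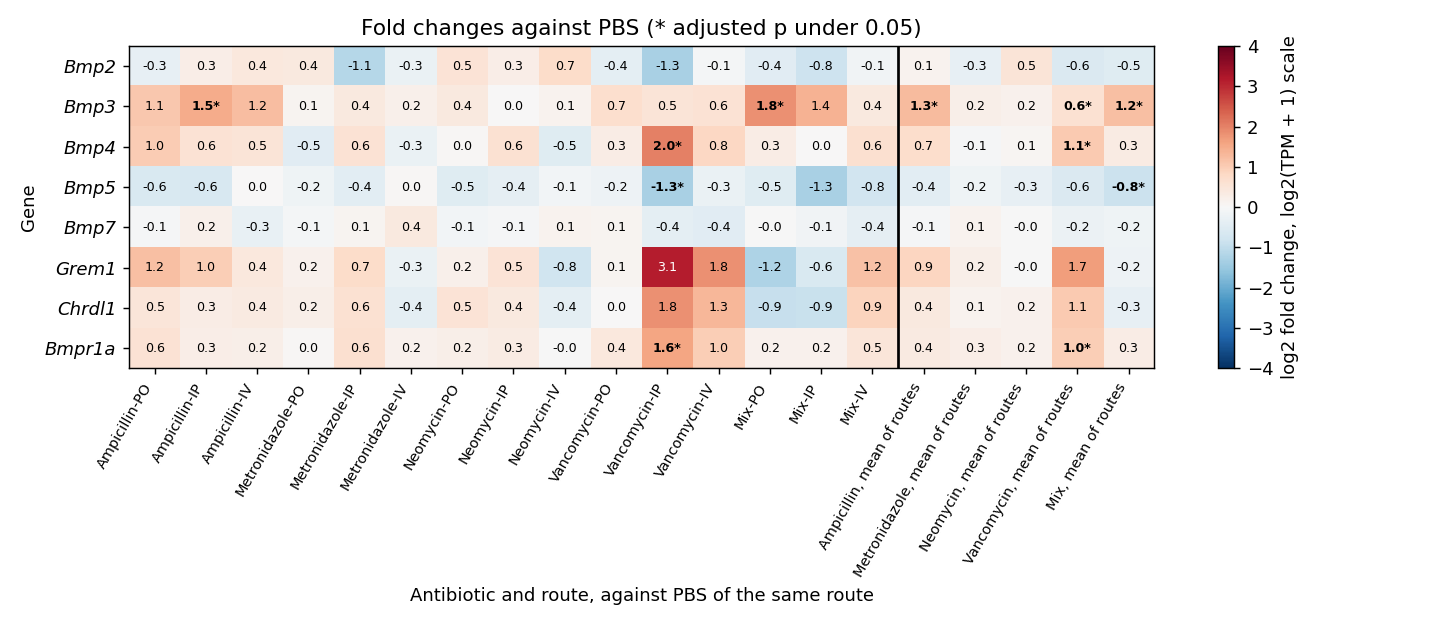
Log2 fold changes of the 8 BMP genes (vertical axis) against PBS of the same route in 15 comparisons and averaged over routes for 5 treatments (horizontal axis), with colour for direction and size and an asterisk for a limma adjusted p under 0.05. Bmp3 is called in Ampicillin-IP and Mix-PO, and Bmp4, Bmp5 and Bmpr1a in Vancomycin-IP. Grem1 has the largest value, 3.13 in Vancomycin-IP, without a call.

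None of the 8 genes was called with metronidazole or neomycin by any route, or in Mix-IV. Of all genes, 0% were called in each of Metronidazole-PO, Metronidazole-IP and Metronidazole-IV, 0.0176% in Neomycin-PO, 0.603% in Neomycin-IP and 0.544% in Neomycin-IV. At an unadjusted limma p under 0.05 none of the 8 passed in those 6 comparisons or in Mix-IV, where 252 to 1236 genes did. An F test of whether each antibiotic's effect differed between routes called none of the 8, with 0% of genes called for ampicillin, metronidazole, vancomycin and the mix and 0.0878% for neomycin (limma). At an unadjusted p under 0.05, 1 of the 8 passed with the mix, Bmp3 (limma adjusted p = 1), and 1 with vancomycin, Bmpr1a (limma adjusted p = 0.632), among 156 to 1127 genes over the 5 tests. The weaker Bmp3 change in Mix-IV than in Mix-PO is not shown to differ by route.

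Within the 18 groups, all 8 genes varied with the smooth muscle score, in a fit that held both scores. Grem1 rose by 1.36 on the log2(TPM + 1) scale per unit of muscle score (limma adjusted p = 9.55e-31, SE 0.07), a slope above that of 99.98% of tested genes. Chrdl1 rose by 0.74 (SE 0.03), Bmp4 by 0.70 (SE 0.05) and Bmpr1a by 0.39 (SE 0.02). In the other direction Bmp2 fell by 0.68 (limma adjusted p = 2.03e-15, SE 0.07) and Bmp5 fell by 0.38 (SE 0.05). Bmp7 fell by 0.17 (SE 0.04) and Bmp3 fell by 0.14 (limma adjusted p = 0.00126, SE 0.04). Both antagonists and the receptor thus rose with muscle, and the ligands divided, with Bmp4 rising and the other 4 falling. These 4 rises and 4 falls stand beside 42.6% of all genes that rose and 34.7% that fell with the score, so a call in itself was common.

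With the distal score, 7 of the 8 genes varied, where 30% of all genes rose and 30.2% fell. Grem1 rose by 0.63 per unit (SE 0.05), Chrdl1 by 0.50 (limma adjusted p = 1.14e-36, SE 0.02) and Bmp2 by 0.50 (SE 0.04), and each of these slopes was above that of at least 99.14% of tested genes. Bmp5 rose by 0.12 (SE 0.03). Bmp3 fell by 0.25 (limma adjusted p = 3.38e-14, SE 0.03), Bmp4 fell by 0.17 (SE 0.03) and Bmp7 fell by 0.07 (limma adjusted p = 0.0119, SE 0.03). Bmpr1a showed no slope past the test, at -0.00 (95% interval -0.03 to 0.03). Bmp2 and Bmp5 therefore fell with muscle and rose with the distal score, and Bmp4 did the reverse. Grem1 and Chrdl1 rose with both.

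**Figure D4:**
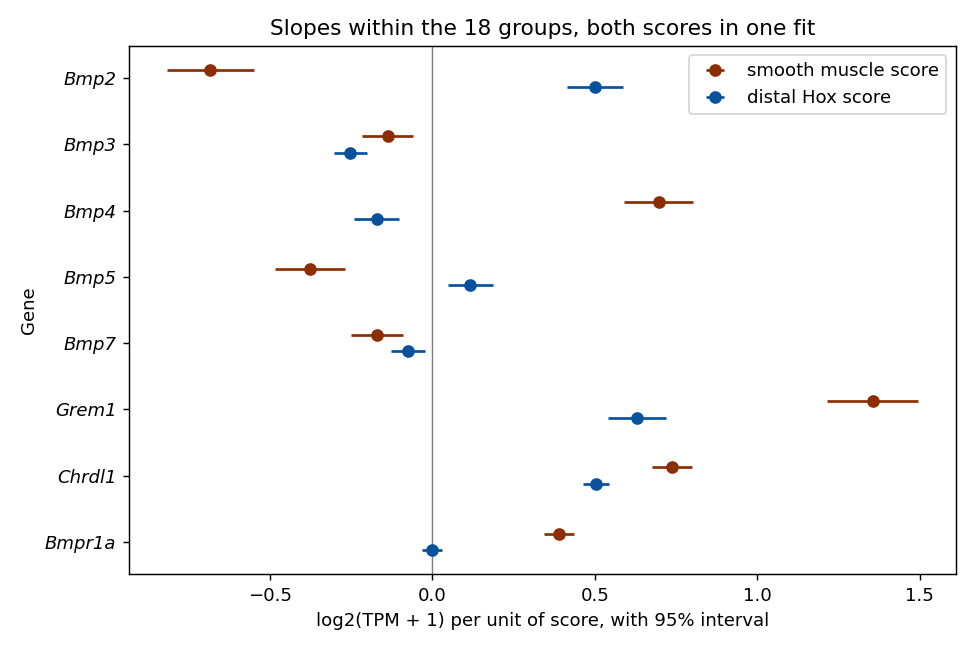
Slope of each BMP gene on the smooth muscle score (brown) and the distal Hox score (blue), in log2(TPM + 1) per unit of score with 95% intervals, from a fit of 97 libraries in 18 groups. Grem1 and Chrdl1 lie above 0 on both scores, Bmp3 and Bmp7 lie below 0 on both, and Bmp2, Bmp4 and Bmp5 have opposite signs on the 2 scores.

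The scores took different shares of each gene's variance within groups. Both together took 94.1% of it for Chrdl1, 87.8% for Grem1, 78.6% for Bmpr1a, 74.2% for Bmp2, 70.7% for Bmp4, 58.3% for Bmp3, 43.1% for Bmp5 and 25.5% for Bmp7. Muscle alone took 78.6% for Bmpr1a and 61.8% for Bmp4, and the distal score alone took 51.9% for Bmp3. For Grem1, Chrdl1, Bmp2 and Bmp3 the libraries with little muscle lay in separate bands of high and low distal score rather than along a line, so these slopes are summaries of an uneven spread. Fitted in each route alone, each of the 8 genes kept the sign of both slopes it was called for. The call was lost for the muscle slope of Bmp3 with PO (-0.10) and IP (-0.13) libraries alone and of Bmp7 with IP (-0.08). For the distal slope it was lost for Bmp4 with IP (-0.15), for Bmp5 with PO (0.03) and IV (0.15), and for Bmp7 with every route (-0.03 to -0.10).

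**Figure D5:**
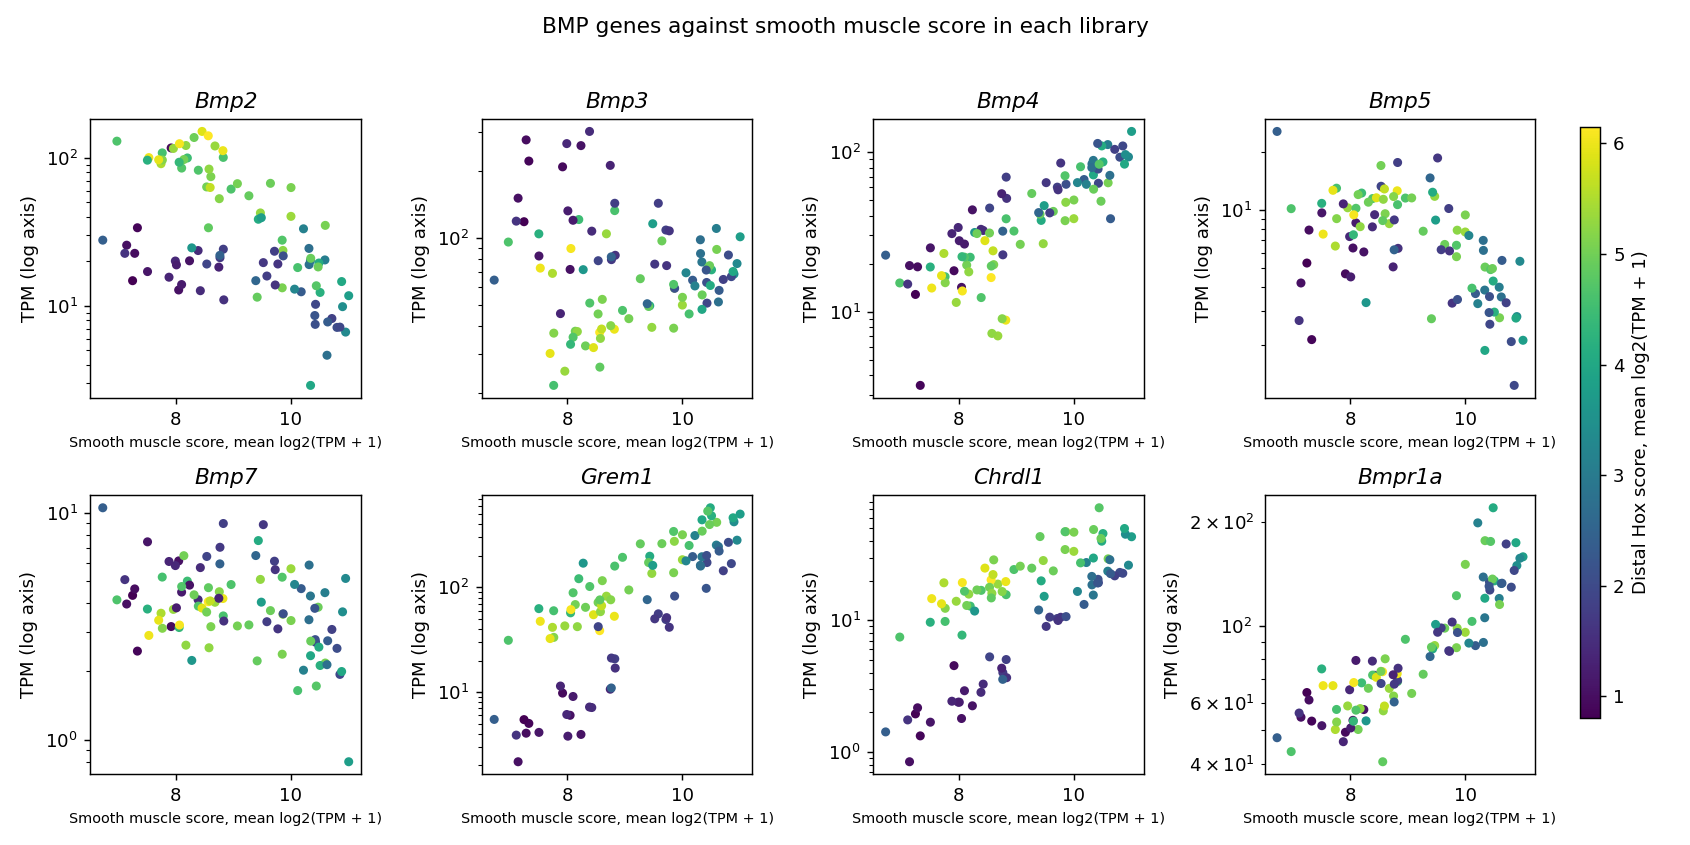
TPM of each BMP gene (log axes) against the smooth muscle score in 97 libraries, coloured by the distal Hox score. Bmp4 and Bmpr1a climb with muscle, Grem1 and Chrdl1 climb in separate bands for low and high distal scores, and Bmp2 and Bmp3 spread by distal score where the muscle score is under the median of 8.83.

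The genes whose levels most resembled each member were ranked by Pearson's r of group-centred log2(TPM + 1) over the 97 libraries, a description in which the points share libraries and both scores. For Grem1 they were Fgf10 (r = 0.966), a mesenchymal growth factor, Angptl7 (0.959) and Chrm2 (0.954), the M2 muscarinic receptor of smooth muscle. For Chrdl1 they were Abi3bp (0.957), Chrm2 (0.945) and Brinp2 (0.939). Bmp4 was closest to Aldh1a2 (0.875), a retinoic acid synthesising enzyme, Isl2 (0.865) and Dlc1 (0.865). Bmpr1a was closest to Ube2q2 (0.951), Pja2 (0.945) and Ptpn11 (0.942).

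Among the other ligands, Bmp2 was closest to Mgat4a (0.935), a glycosyltransferase, Ccser1 (0.93) and Sowahc (0.925). Bmp3 was closest to Pgrmc1 (0.859), Nceh1 (0.859) and Malrd1 (0.842). Bmp5 resembled genes of plasma cells, Jchain (0.899), the joining chain of secreted antibodies, and Igha (0.888), the IgA heavy chain, followed by Procr (0.859). Bmp7 was closest to Adamdec1 (0.767), Trpa1 (0.744) and Eif2ak2 (0.712), with the lowest likeness of the 8. The B cell list, at 5.20 to 1341 TPM in sum, had no member called in Vancomycin-IP or in the mix averaged over routes, where Bmp5 was lower. Its sum was 7.67 to 391 TPM in Vancomycin-IP and 12.1 to 88.1 TPM in PBS-IP, and its part in the Bmp5 values was not tested.

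The rest of the BMP pathway was read from lists of 15 ligands, 17 antagonists, 11 receptors and co-receptors, 8 SMADs and their regulators and 9 target genes, of which 12, 15, 10, 8 and 7 were tested. On the muscle score, where 42.6% of all genes rose and 34.7% fell with a median slope of 0.02, 13 of 15 antagonists rose and none fell, with a median slope of 0.52. Beside Grem1 and Chrdl1, Fstl3 rose by 0.76 per unit (limma adjusted p = 1.34e-44, SE 0.02), Sostdc1 by 0.68, Fstl1 by 0.67 and Nbl1 by 0.52. Of 12 ligands 8 rose and 4 fell, led by Gdf10 at 1.08 (limma adjusted p = 8e-50, SE 0.03), a ligand close to Bmp3 in sequence. Of 10 receptors and co-receptors 9 rose and 1 fell, with the co-receptor Rgma at 0.81, and of 8 SMADs and regulators 6 rose and 1 fell. Targets divided, with 3 of 7 higher and 3 lower.

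On the distal score, where 30% of all genes rose and 30.2% fell, the lists held genes called in both directions. Of the 15 antagonists 6 rose and 4 fell, with follistatin (Fst) at -0.60 (limma adjusted p = 2.52e-28, SE 0.03) and noggin (Nog) at 0.19 per unit. Of 12 ligands 4 rose and 6 fell, Bmp8a among the latter at -0.26. The target Id4 rose by 0.49 (limma adjusted p = 3.05e-31, SE 0.02) and Smad4, the common SMAD, by 0.27.

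In Vancomycin-IP, where 19% of all genes were called, 6 of 15 antagonists rose and none fell, with a median log2 fold change of 1.53 against 0.11 for all genes and 1.05 for the 8 genes first described. Quantile normalization shifted the median of all genes there by -0.17. Fstl1 rose by 2.25 (limma adjusted p = 0.0076, SE 0.54), Fstl3 by 2.10, Nbl1 by 1.59 and Twsg1, a modulator of chordin, by 1.57. The type II receptor Bmpr2 rose by 0.88. Gdf5, with a median of only 0.72 TPM over all libraries, rose by 1.75, while 4 of 12 ligands rose and 1, Bmp5, fell. Of the SMADs and regulators 6 of 8 rose. Of the 7 targets none rose and 1 fell, with a median of 0.01. With both scores as covariates no antagonist, ligand, SMAD or target was called, and 1 of 10 receptors was, Bmpr1a. With vancomycin averaged over routes, where 26% of all genes were called, 7 of 15 antagonists and 6 of 10 receptors rose, with Acvr2a, a type II receptor, at 0.51 and Smad5 at 0.52, against 3 and 3 with the covariates, where 6.37% were called.

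With ampicillin averaged over routes, where 7.88% of all genes were called, 2 of 12 ligands rose, Bmp3 and Gdf5 (0.88, SE 0.23, limma adjusted p = 0.00912). Gdf5 was near the floor, with a median of 0.72 TPM over all libraries. The target Id2 rose by 0.36, Acvr2a by 0.40, the ubiquitin ligase Smurf1 by 0.25 and Nbl1 by 0.72, while the decoy receptor Bambi fell by 0.40 (limma adjusted p = 0.0395, SE 0.13). With the mix, where 7.96% of all genes were called, 1 or 2 genes passed in each list. Id2 rose by 0.34, Acvr2a by 0.30, Smurf1 by 0.22 and Bmper, an extracellular BMP regulator, by 0.77, and Bambi fell by 0.44 (limma adjusted p = 0.0227, SE 0.13). Bmper also rose in Mix-PO, by 1.65 (limma adjusted p = 0.0247, SE 0.38), the only antagonist called there. These 2 averages share the PBS libraries, so their like values are not independent of each other. No gene of the 5 lists was called with metronidazole or neomycin averaged over routes. With both scores as covariates 1 was, the antagonist Sostdc1 with neomycin (0.37, limma adjusted p = 0.0119, SE 0.10), where 7.25% of all genes were called.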

How the data were processed

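RNA of whole mouse colon (1000 ng, poly(A) selected) was sequenced in 75 single-end cycles, per the labels' protocols. Trim Galore 0.6.2, cutadapt 3.5, Salmon (version not given in the sources used here) and the build GRCm39 are named, without their settings, per the submitters' processing notes. The authors deposited 1 table of TPM values per gene for 97 libraries, and every value column was matched to a sample by name. How strand was handled is not given in the sources used here, so reads of overlapping antisense genes may be shared.

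Values were taken as log2(TPM + 1), and 17083 of 20457 genes with at least 1 TPM in at least 4 libraries were fitted in 1 model of 18 groups with limma 3.58.1 (trend and robust variance, R 4.3.3). Each antibiotic was compared with PBS of its route, averaged over routes and tested for a difference between routes, and Benjamini-Hochberg adjustment was made over all genes in each comparison, with a call at an adjusted p under 0.05. A further fit added the muscle and distal scores as covariates, which also gave the slopes. The highest correlation between libraries was 0.9888, and no libraries were identical. The comparisons between antibiotics, the fits without the appended libraries and other added alternatives were chosen after seeing the data.

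The 8 genes and all gene lists were chosen with earlier results of these data known. Besides the 8 genes, those named are the 3 with the highest likeness to each (Gm, Rik and pseudogene models left out), and up to 6 called genes of the pathway lists in each comparison, by adjusted p; 1 gene that this rule names is not reported here. Sequences come from RefSeq promoters of GRCm38.p6, used without conversion to GRCm39. The fits were tested on simulated data.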

Additional observations from a re-analysis of the deposited data

Results flagged for a closer look

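In 6 of 144 sets of values, 1 gene in 1 group each, a single library stood far from the rest of its group. Chance gives about 1 in 20, so these flags are no more frequent than chance alone would make them. Ampicillin-IV replicate 3 had 134.8 TPM of Bmp4, against 55.0 in the next library, and 0.7995 TPM of Bmp7, against 3.21 in the next. It also had the highest muscle score of all 97 libraries, 11.01. Vancomycin-IV replicate 1 had 19.02 TPM of Bmp4 and 75.09 TPM of Bmpr1a, against 79.96 and 138.3 in the nearest library of its group. Its muscle score was 7.505, the lowest of its group. Mix-IP replicate 1 had 105.5 TPM of Bmpr1a, against 67.18 in the next, and the highest muscle score of its group, 10.3. Metronidazole-PO replicate 3 had 83.47 TPM of Bmp3, against 50.92 in the next. Its distal score was 1.563, the lowest of its group, where the next was 4.683. The part of muscle content or of position along the colon in these values was not tested.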

How the results depend on the processing

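No called value of the 8 genes changed sign under any alternative run. Counts of the 8 genes called, 3 in Vancomycin-IP, 3 for vancomycin averaged over routes, 2 for the mix average, 1 in Ampicillin-IP, in Mix-PO, for the ampicillin average and in each comparison between antibiotics, and 0 in the other comparisons with PBS and tests of route, moved as follows, beside 8 on the muscle and 7 on the distal score. With a pseudocount of 10, Vancomycin-IP and the vancomycin average had 5 each, with quantile normalization Ampicillin-IP had 0, and with no filter Vancomycin-IP had 2. With array weights there were 3 in Ampicillin-PO, 6 in Vancomycin-IP, 3 in Vancomycin-IV, 5 in Mix-IP, 2, 7 and 4 in the ampicillin, vancomycin and mix averages, 2 for ampicillin and 3 for the mix against metronidazole, 4 for the mix against neomycin, and 1 each in the vancomycin and mix tests of route. Without the appended libraries there were 0 in Ampicillin-IP and Vancomycin-IP, 1 in the vancomycin and mix averages and 2 for the mix against metronidazole. With both covariates there was 1 each in Ampicillin-PO, Ampicillin-IV, Vancomycin-IP, Vancomycin-IV and Mix-IP, 2 in the vancomycin and ampicillin averages and for ampicillin against metronidazole, and 3 for the mix against metronidazole. With the compared groups alone there were 0 in Ampicillin-IP and Mix-PO and 6 in Vancomycin-IP. Leaving out 1 library gave 0 to 1 in Ampicillin-IP, Mix-PO, Mix-IP and Vancomycin-IV, 1 to 3 in Vancomycin-IP, 2 to 6 in the vancomycin average and 1 to 2 for the mix against metronidazole. Without any alternative, 19% of all genes were called in Vancomycin-IP and 26% in the vancomycin average. Among the alternatives, the share of all genes called was counted only with both covariates. The other counts are therefore not results about the 8 genes. The cause of these moves was not tested, except that fewer samples enter the fits that leave libraries out. Same-numbered libraries of a comparison correlated from -0.696 to 0.837 and are not paired; the replicate block gave 1 in Mix-IP, 4 in the vancomycin average and 6 on the distal score. TPM without read numbers give no counting error, which limits statements on Gdf5 and on the lowest levels of Bmp7, Bmp5 and Chrdl1.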
